A study of Arabidopsis thaliana with 12 samples.

Results

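The 43 genes described here make, modify, move and break down glucosinolates, the sulfur-rich defence compounds of the Brassicales. They were taken by locus identifier from a list of the pathway's genes, drawn up with earlier results of these data known, out of 37336 genes in a table of normalized counts. The list holds 6 MYB regulators, 9 genes of aliphatic chain elongation, 6 of the aliphatic core pathway, 4 of the indolic core pathway and 3 core genes shared by both. It also holds 6 genes of side chain modification, 5 of indole ring modification, the transporters *GTR1* and *GTR2*, and the myrosinases *TGG1* and *TGG2*. Reads were counted for 42 of them in at least 1 library, whereas *CYP81F1* was listed at 0 in all 12.

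Mature leaves of *Arabidopsis thaliana* were profiled by RNA-seq in 12 libraries, with 3 in each of 4 groups. The plants were wild type Col-0, or *rtnlb16-1*, the Salk_122275 T-DNA insertion line in the Col-0 background, and were 4 weeks old. They were grown either in long days (LD), a light and dark cycle of 16 and 8 h at about 80 µmol/sec/m2, or in continuous low light (CLL) at about 50 µmol/sec/m2. One label gives the LD cycle as light to dark and another in the reverse order, and the regimes differ in both day length and intensity. The intensities are those of the labels, and the study's methods give a range for LD and a lower value for CLL. Each replicate was a pool of leaves from at least 3 plants. The *rtnlb16-1* line is 1 allele: by the study's account its insertion removes the start of 1 *RTNLB16* isoform, and a CaMV35S enhancer within the T-DNA drives the others. Libraries carry the numbers 47 to 49 (Col-0 LD), 50 to 52 (*rtnlb16-1* LD), 65 to 67 (Col-0 CLL) and 68 to 70 (*rtnlb16-1* CLL), so the light regime and the numbering of the libraries cannot be told apart.

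The assigned reads ran from 25954730 to 44747661 per library. *RTNLB16* itself lay between 7577 and 12665 normalized counts in *rtnlb16-1* LD against 769 to 1016 in Col-0 LD, and between 1543 and 2252 in *rtnlb16-1* CLL against 640.3 to 954 in Col-0 CLL, so no library went against its genotype label. Libraries 68 and 69 resembled each other more than any other replicate pair (SD of the log2 ratio 0.111, against 0.286 to 0.734 in the 11 other pairs). They differed by more than sampling noise, but by far less than the other pairs (chi-square per gene 1.81, against 25.4 to 175). They are counted as 2 libraries below, and a fit with the pair merged was an alternative. The mesophyll markers that define a leaf were abundant everywhere. Transcripts of the shoot meristem and flower markers *STM*, *LFY* and *AP1* were at 0 in all 3 Col-0 LD libraries, close to 0 in Col-0 CLL library 66, and present in the other 8 libraries. *AG*, a further flower marker, did not follow this: it was at 64.4, 63.3 and 87.8 in Col-0 LD, at 24.5, 68.6 and 57.1 in *rtnlb16-1* LD and at 18.3 in library 66. In such bulk tissue, fewer cells of a type and less RNA per cell cannot be told apart.

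Glucosinolates fall into an aliphatic class, built from methionine whose side chain is first lengthened, and an indolic class, built from tryptophan. In both, CYP79 and CYP83 enzymes oxidize the amino acid, sulfur is added from glutathione, and a glucosyltransferase and a sulfotransferase finish the core, which flavin monooxygenases, 2-oxoglutarate-dependent dioxygenases and CYP81F enzymes then decorate. The regulators MYB28, MYB29 and MYB76 activate aliphatic genes, and MYB34, MYB51 and MYB122 indolic genes, together with MYC bHLH factors. The finished compounds are stored in the vacuole and carried through the phloem. When a leaf is wounded, myrosinases cut off the glucose, and specifier proteins steer the product towards isothiocyanates, nitriles or other compounds.

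The promoters of 6 members are shown because the results turn on these genes: the regulator with the largest decrease under LD, core enzymes of both classes that decreased, the neighbour of one of them that was not called, and the gene that rose in both regimes. Each run is the 250 bases before the annotated start, 5′ to 3′ on the strand of the gene, from the RefSeq TAIR10.1 genome. Capitals mark matches, on either strand, to 6 motifs. These were the G-box CACGTG bound by MYC factors, the W-box form TTGACC and the as-1 core TGACG. The others were MYB-type motifs, of which the first was ACCTAAC. The second such motif was ACCAAAC. The third such motif was ACCTACC. Only these exact letters were sought, so other forms of a motif, such as the W-box form TTGACT, were not marked or counted.
*MYB76* promoter, chr5:2449777-2450026, plus strand: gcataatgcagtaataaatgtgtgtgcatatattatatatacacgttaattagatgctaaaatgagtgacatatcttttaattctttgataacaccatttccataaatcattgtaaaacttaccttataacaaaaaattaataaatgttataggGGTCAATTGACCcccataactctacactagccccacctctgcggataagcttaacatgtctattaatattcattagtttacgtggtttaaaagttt
*CYP83A1* promoter, chr4:7992430-7992679, minus strand: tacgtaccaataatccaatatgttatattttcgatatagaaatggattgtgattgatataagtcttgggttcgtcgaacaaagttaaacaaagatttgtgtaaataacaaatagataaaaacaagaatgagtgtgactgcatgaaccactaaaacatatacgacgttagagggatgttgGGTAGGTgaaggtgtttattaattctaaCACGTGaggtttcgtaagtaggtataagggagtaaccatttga
*CYP79F1* promoter, chr1:5608432-5608681, plus strand: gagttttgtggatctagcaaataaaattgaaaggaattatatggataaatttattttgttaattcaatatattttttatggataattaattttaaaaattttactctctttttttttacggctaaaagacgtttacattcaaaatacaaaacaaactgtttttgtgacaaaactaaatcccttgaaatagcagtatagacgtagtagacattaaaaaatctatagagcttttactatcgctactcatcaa
*CYP79F2* promoter, chr1:5604794-5605043, plus strand: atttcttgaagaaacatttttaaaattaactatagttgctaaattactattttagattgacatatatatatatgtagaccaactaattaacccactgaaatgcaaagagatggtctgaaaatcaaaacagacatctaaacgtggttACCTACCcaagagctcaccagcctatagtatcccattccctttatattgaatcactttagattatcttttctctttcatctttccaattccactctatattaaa
*CYP79B3* promoter, chr2:9488163-9488412, plus strand: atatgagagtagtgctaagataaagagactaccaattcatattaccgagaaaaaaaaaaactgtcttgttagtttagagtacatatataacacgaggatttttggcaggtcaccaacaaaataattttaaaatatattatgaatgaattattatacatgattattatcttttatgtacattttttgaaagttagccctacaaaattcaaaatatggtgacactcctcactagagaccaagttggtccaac
*FMO GS-OX4* promoter, chr1:23168517-23168766, plus strand: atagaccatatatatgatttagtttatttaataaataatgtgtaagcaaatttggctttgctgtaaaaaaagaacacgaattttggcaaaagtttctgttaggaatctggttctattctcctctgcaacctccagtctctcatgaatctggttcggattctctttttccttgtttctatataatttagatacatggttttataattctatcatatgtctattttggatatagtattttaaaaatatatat
The *MYB76* window held TTGACC on both strands, 96 and 90 bases before the start, as a single palindrome. *CYP83A1* held ACCTACC and a G-box, 71 and 43 bases before the start, and *CYP79F2* held ACCTACC where its neighbour *CYP79F1* had no match. No match was found in the windows of *CYP79B3* and *FMO GS-OX4*. Among all 43 members the G-box was present in 3 windows (*IIL1*, *CYP83A1* and *SUR1*), compared with 6.49% of 27443 protein-coding genes. TTGACC was present in 3 members and 12.2% of all genes, ACCTAAC in 2 and 2.46%, and ACCAAAC in 2 and 8.29%. ACCTACC was present in 3 and 1.16%, and TGACG in 6 and 18.6%.

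The 4 contrasts and their interaction were tested with limma on log2(normalized count + 1) over all 30388 genes with a read in any library. A gene was called when its log2 difference exceeded 1 in size and its Benjamini-Hochberg adjusted p was under 0.01. All differences below are on this log2 scale with their standard error (SE), and n is 3 libraries per group throughout. For a single gene, an exact permutation test of 3 against 3 libraries cannot give a p below 0.1, so p-values here are limma adjusted p.

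Under LD, most of the pathway was lower in *rtnlb16-1* than in Col-0. Of the 42 members tested, 19 fell and 3 rose, where 5.41% of all genes fell and 6% rose. The median difference of the members was -0.96, against 0.00 for all genes. Below zero lay 36 of 42 members, against 12513 of all 30388 genes, of which 13982 lay above. With the adjusted p alone and no minimum fold, 27 members were lower, against 6.18% of all genes. In 31 members every *rtnlb16-1* library was below every Col-0 library, as in 12.6% of all genes, and in 3 members above, as in 14.6%. The decrease ran through chain elongation (5 of 9 called lower), the aliphatic core (3 of 6), the indolic core (3 of 4), the shared core (1 of 3) and side chain modification (3 of 6).

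**Figure D1:**
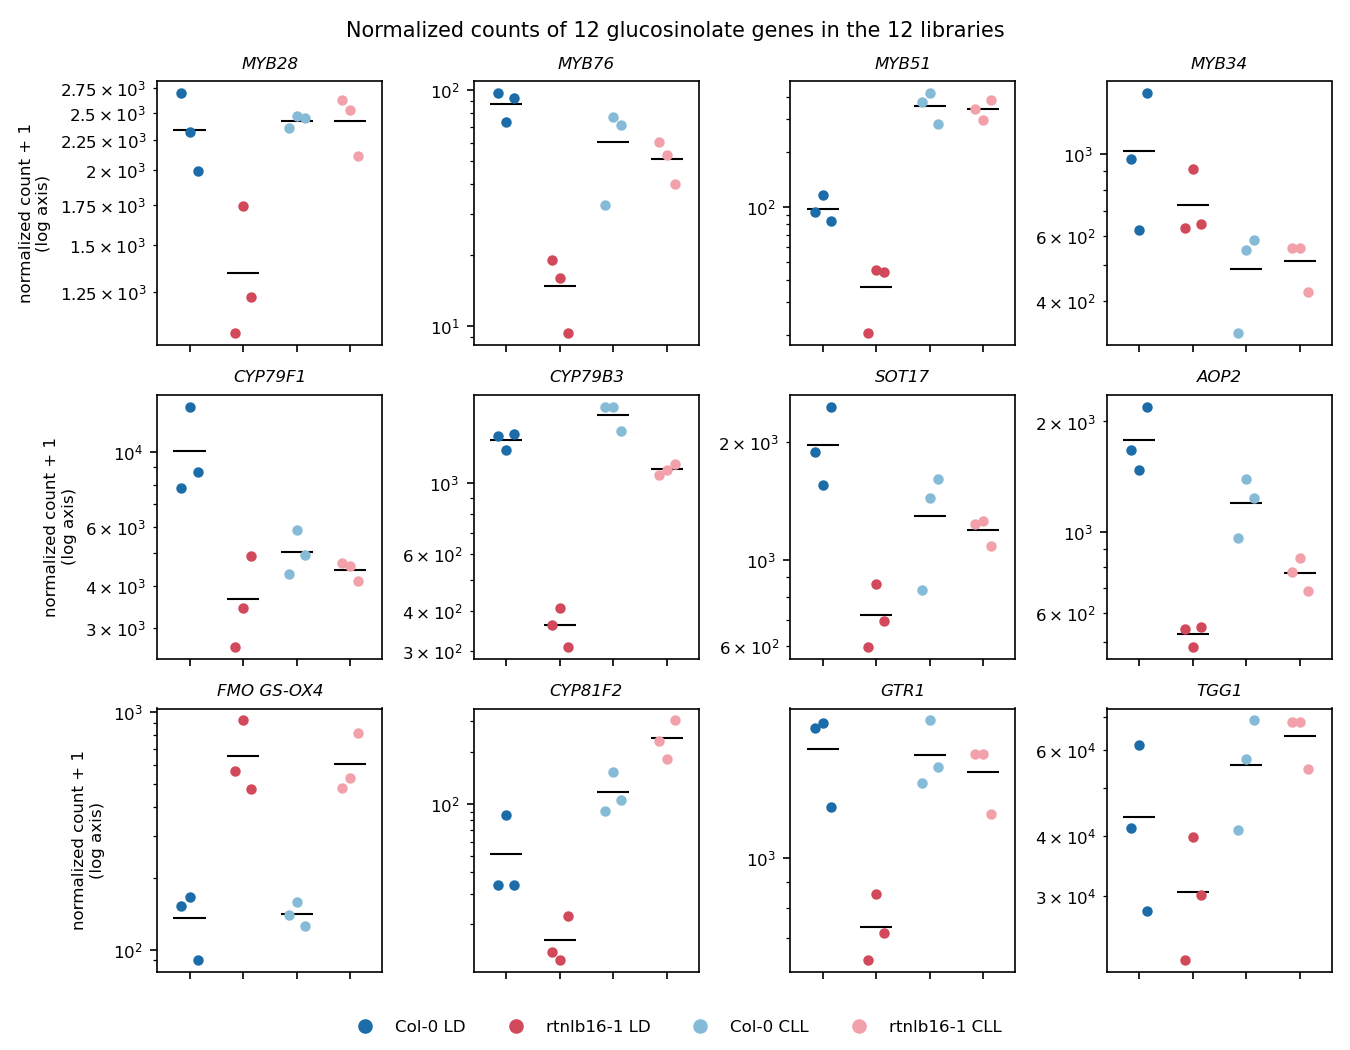
Normalized count plus 1 (log axis) of 12 members in each library, with a point per library, a black bar at the mean of the 3 libraries and colours for the 4 groups. *MYB76*, *CYP79B3*, *AOP2* and *GTR1* have their lowest 3 points in *rtnlb16-1* LD, whereas *FMO GS-OX4* separates the genotypes in both regimes.

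Among the aliphatic regulators, *MYB76* (AT5G07700) moved most. Its normalized counts were 95.8, 72.1 and 91.9 in Col-0 LD and 18.1, 14.95 and 8.33 in *rtnlb16-1* LD. The groups lay far apart, and *MYB76* fell by 2.62 (SE 0.42, limma adjusted p = 0.000461). *MYB28* (AT5G61420), the regulator with the broadest role in aliphatic synthesis, was at 2694, 2322 and 1997 in Col-0 LD and at 1063, 1739 and 1222 in *rtnlb16-1* LD. All 3 mutant libraries were below all 3 of Col-0, but the difference of -0.82 (SE 0.19, limma adjusted p = 0.00711) missed the fold threshold. Without *rtnlb16-1* LD library 51 it was -1.02 and was called. *MYB29* (AT5G07690), at 1393, 862 and 1511 in Col-0 LD and 503, 999.6 and 674 in *rtnlb16-1* LD, overlapped between the groups and was not called (-0.81, SE 0.28, limma adjusted p = 0.0548). *MYB29* and *MYB76* are neighbours on chromosome 5, where *MYB29* spans 2446669 to 2448584 and *MYB76* 2450027 to 2451807, both on the plus strand.

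Of the indolic regulators, *MYB51* (AT1G18570) alone was called. It was at 93.0, 114 and 82.3 in Col-0 LD and at 19.4, 44.0 and 42.9 in *rtnlb16-1* LD. The mutant libraries were all lower, and *MYB51* fell by 1.497 (SE 0.31, limma adjusted p = 0.00315), a call that was lost without Col-0 LD library 48 (-1.37). *MYB34* (AT5G60890), which drives tryptophan-derived synthesis, was at 968, 623 and 1461 in Col-0 LD against 629.7, 910 and 645 in the mutant. These ranges overlapped (-0.42, SE 0.30, limma adjusted p = 0.389). *MYB122* (AT1G74080) was at 0 in all Col-0 LD libraries and had 1.29 normalized counts in a single *rtnlb16-1* LD library, too little to show a difference.

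Chain elongation starts with the aminotransferase BCAT4 and the plastid importer BAT5, and each cycle uses a MAM synthase, an isomerase of large and small subunits, and the dehydrogenase IMD1. *IPMI1* (AT3G58990), a small subunit, was at 5596, 5733 and 8057 in Col-0 LD and at 2975, 2016 and 2809 in *rtnlb16-1* LD. The groups did not overlap, and it fell by 1.31 (SE 0.20, limma adjusted p = 0.000287). *IMD1* (AT5G14200) was at 9552, 7244 and 8843 in Col-0 LD and at 3699, 3801 and 3678 in the mutant, a fall of 1.19 (SE 0.18, limma adjusted p = 0.000315). The 3 mutant values of *IMD1* were nearly the same, at well under the lowest of Col-0. *BAT5* (AT4G12030, -1.17), *IPMI2* (AT2G43100, -1.14) and *BCAT4* (AT3G19710, -1.10) were called as well. The call of *BCAT4* was lost without library 49 (-0.93) or 51 (-0.84), and that of *IPMI2* without library 48 (-0.91), 49 (-1.14) or 51 (-0.92). *MAM1* (AT5G23010), which sets the first elongation cycles, passed the adjusted p but not the fold (-0.88, limma adjusted p = 0.00373), while *BCAT3* (AT3G49680, -0.46) and the large subunit *IIL1* (AT4G13430, -0.35) were not called. *MAM3*, the one gene of the 9 not below zero, was at 0.02 (SE 0.24).

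The aliphatic core showed the same direction in all 6 genes. *CYP79F1* (AT1G16410), which converts elongated methionine to aldoxime, was at 7800, 13594 and 8725 in Col-0 LD and at 2644, 3449 and 4903 in *rtnlb16-1* LD. The highest mutant library was below the lowest of Col-0, and *CYP79F1* fell by 1.46 (SE 0.25, limma adjusted p = 0.000775). The sulfotransferase gene *SOT17* (AT1G18590) was at 1885, 1546 and 2455 in Col-0 LD and at 597, 865 and 694 in the mutant, a fall of 1.44 (SE 0.25, limma adjusted p = 0.00077). *CYP83A1* (AT4G13770), the next enzyme after CYP79F1, fell by 1.26 (SE 0.19). The other sulfotransferase *SOT18* (AT1G74090, -0.84) and the glucosyltransferase *UGT74C1* (AT2G31790, -0.78) passed the adjusted p without the fold. *CYP79F2* (AT1G16400) did neither (-0.37, SE 0.29, limma adjusted p = 0.426).

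In the indolic core, *CYP79B3* (AT2G22330), one of a pair of enzymes that turn tryptophan into its aldoxime, had the clearest difference of all members. It was at 1404, 1267 and 1418 in Col-0 LD and at 361, 409 and 308 in *rtnlb16-1* LD. The spread within each group was small beside the gap, and it fell by 1.93 (SE 0.16, limma adjusted p = 1.76e-06). *CYP83B1* (AT4G31500), which acts next, fell by 1.38 (SE 0.21, limma adjusted p = 0.000307), from 5898, 8487 and 5834 to 2308, 2394 and 3003. The sulfotransferase gene *SOT16* (AT1G74100) fell by 1.07 (SE 0.18, limma adjusted p = 0.000685), a call lost without library 50 (-0.96). *CYP79B2* (AT4G39950) differed by only -0.46 (SE 0.20, limma adjusted p = 0.126), although its groups did not overlap.

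Of the core genes shared by both classes, *GGP1* (AT4G30530), the gamma-glutamyl peptidase, was at 6171, 3705 and 9198 in Col-0 LD and at 1818, 2885 and 2300 in the mutant. Col-0 was the more variable group, and *GGP1* fell by 1.37 (SE 0.34, limma adjusted p = 0.00865). Its call was lost without any 1 of libraries 47, 49, 50, 52, 66, 68, 69 and 70, with values from -1.38 to -1.06. The C-S lyase gene *SUR1* (AT2G20610, -0.98, SE 0.18) and the glucosyltransferase gene *UGT74B1* (AT1G24100, -0.62, SE 0.15) passed the adjusted p but not the fold.

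Side chain modification held both directions. *AOP2* (AT4G03060), a dioxygenase gene that RefSeq annotates in Col-0 as a transcribed pseudogene, was at 1668, 1471 and 2190 in Col-0 LD and at 541, 484 and 549 in *rtnlb16-1* LD. Its mutant values were close together and far below Col-0, and it fell by 1.74 (SE 0.19, limma adjusted p = 2.09e-05). The S-oxygenase genes *FMO GS-OX1* (AT1G65860) and *FMO GS-OX3* (AT1G62560) each fell by 1.15 (SE 0.16). *FMO GS-OX4* (AT1G62570), of the same family, went the other way: it was at 152, 165 and 89.1 in Col-0 LD and at 561, 920.5 and 472 in *rtnlb16-1* LD. Each mutant library was above each Col-0 library, and *FMO GS-OX4* rose by 2.25 (SE 0.30, limma adjusted p = 0.00011). *FMO GS-OX5* (AT1G12140) passed the adjusted p alone (-0.78), and *FMO GS-OX2* (AT1G62540) was not called (0.24, SE 0.28).

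The indole-modifying genes were low throughout and moved apart from each other. *CYP81F3* (AT4G37400) was at 134, 186.5 and 123 in Col-0 LD and at 24.5, 54.5 and 29.8 in the mutant, a fall of 2.06 (SE 0.35, limma adjusted p = 0.000698). *CYP81F2* (AT5G57220), needed for the 4-methoxy compound in innate immunity, was at 32.9, 84.4 and 32.9 in Col-0 LD and at 12.9, 11.4 and 21.4 in the mutant. It was lower in every mutant library but missed the adjusted p (-1.55, SE 0.41, limma adjusted p = 0.0145), while edgeR and DESeq2 called it. *IGMT1* (AT1G21100), the methyltransferase gene that acts after CYP81F, was at 22.9, 26.4 and 30.2 in Col-0 LD and at 129, 83.5 and 132 in the mutant, and rose by 2.06 (SE 0.33, limma adjusted p = 0.000472). *IGMT1* belongs to a family of similar genes, so reads that also fit a near copy could be assigned to neither.

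*CYP81F4* (AT4G37410), which acts on the ring at another position, was at 0 in all Col-0 LD libraries and at 33.5, 54.5 and 46.4 in *rtnlb16-1* LD. Against a floor of 3 reads per library, averaging 4.56 normalized counts, this was at least 9.83-fold higher (limma adjusted p = 0.00118). In CLL it was at 24.8, 0 and 37.9 in Col-0 and at 12.9, 9.25 and 20.2 in *rtnlb16-1*. The 4 libraries at 0 were the 4 in which *STM* was at 0 or at 2.74, whereas *STM* was between 113 and 426 in the other 8. *LFY* and *AP1* were at 0 in the same 4 libraries. The part of these tissues in the *CYP81F4* result was not tested. Of the exonic bases of *CYP81F4*, 88.2% also lie in an exon of a gene on the opposite strand, and for *CYP81F1* (AT4G37430) it was 98.4%. Only reads assigned to a single gene were counted. Strand use is not given in the sources used here, and if strand was ignored, 203 and 29 exonic bases remained from which reads of *CYP81F4* and *CYP81F1* could be counted.

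**Figure D2:**
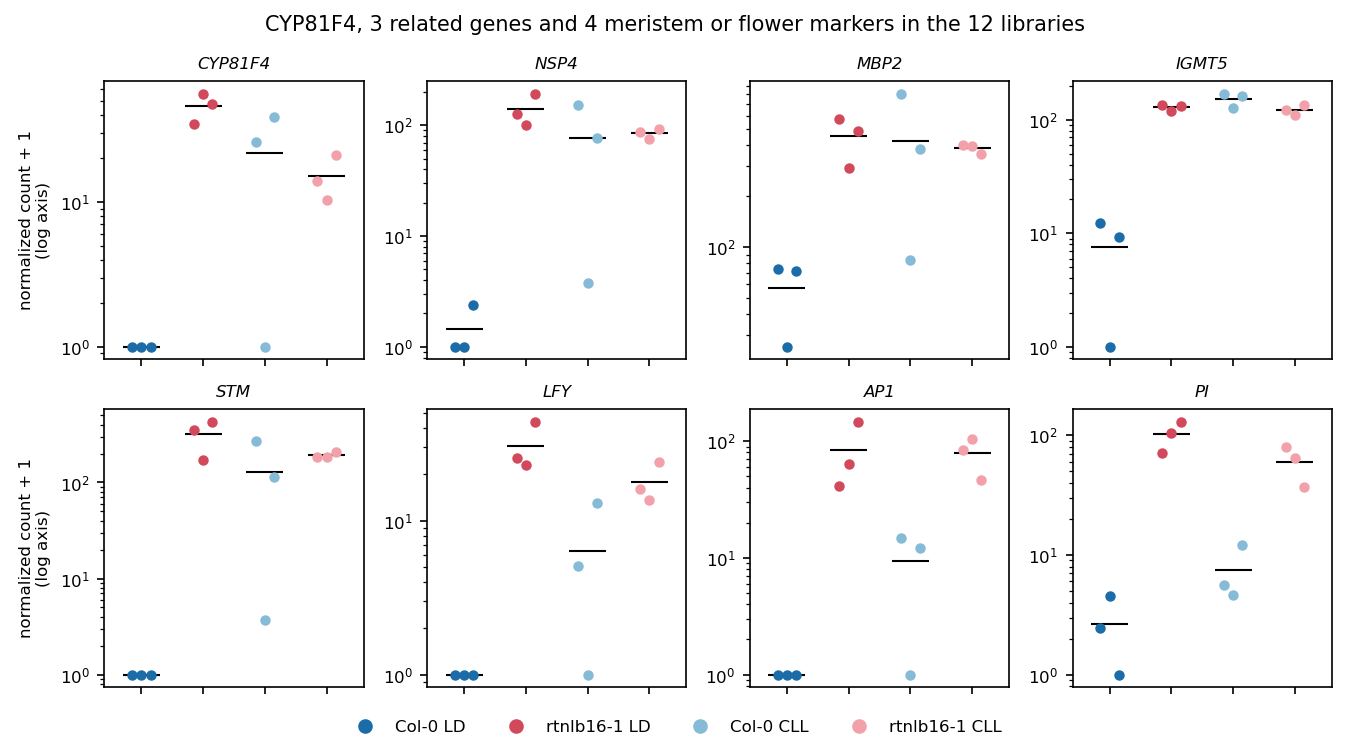
Normalized count plus 1 (log axis) of *CYP81F4*, of *NSP4*, *MBP2* and *IGMT5* from the wider pathway lists, and of 4 meristem or flower markers, with a point per library, a black bar at the group mean and colours for the 4 groups. *CYP81F4*, *STM*, *LFY* and *AP1* are at 0 in all 3 Col-0 LD libraries, and *CYP81F4*, *LFY* and *AP1* also in Col-0 CLL library 66.

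The transporter genes were both lower. *GTR1* (AT3G47960) was at 1795, 1836 and 1259 in Col-0 LD and at 632, 852 and 715.5 in *rtnlb16-1* LD. The groups did not overlap, and *GTR1* fell by 1.14 (SE 0.20, limma adjusted p = 0.0009). *GTR2* (AT5G62680), at 1507, 1245 and 1296 against 654, 883 and 651, was also lower in every mutant library but missed the fold (-0.90, SE 0.17, limma adjusted p = 0.00178). Without library 51, *GTR2* was at -1.04 and was called.

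The myrosinase genes were the most abundant members and neither was called. *TGG1* (AT5G26000) was at 41548, 61407 and 28032 in Col-0 LD and at 22176, 39641 and 30179 in the mutant. The ranges overlapped widely (-0.48, SE 0.35, limma adjusted p = 0.408). *TGG2* (AT5G25980) was at 24236, 43572 and 20868 against 10164, 13643 and 22286, which overlapped by 1 library (-0.95, SE 0.33, limma adjusted p = 0.0527).

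Per kilobase of exon, the order of the Col-0 LD means ran from *TGG1* (23065 ± 8868 SD) and *TGG2* (15004) through *CYP83A1* (9144), *BCAT4* (6688) and *IIL1* (6010) down to *CYP81F2* (28.3), *IGMT1* (17.1), with *MYB122* and *CYP81F4* at 0. Among the regulators *MYB28* (1181) stood above *MYB29* (725), *MYB34* (572), *MYB76* (56.4) and *MYB51* (54.1). *MYB76* and *MYB51* did not differ beyond their spread. In *rtnlb16-1* LD the same scale gave *TGG1* 16199, *TGG2* 7799, *IIL1* 4711 and *CYP83A1* 3803, so *IIL1* stood above *CYP83A1* there.

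Cell type markers also differed between the genotypes under LD, and some did under CLL. The summed level of 4 mesophyll markers was 1713541 to 3001599 in Col-0 LD and 928532 to 1465084 in *rtnlb16-1* LD, with *PSAD1* called lower (-1.47, lost without library 48, -1.30, or 52, -1.54). Of 5 phloem markers, summing to 12750 to 18650 against 7053 to 12246, *SWEET12* fell by 2.51 and *SUC2* was at -1.05, a call lost without any 1 of 8 libraries (-1.12 to -0.76). The 5 guard cell markers summed to 4063 to 8971 against 2397 to 3666 with none called by limma. At an unadjusted p under 0.05, 2 of these 5 were lower, and edgeR called 2 and DESeq2 1. Of all 30388 genes, 4559 were lower at that p under LD, and edgeR and DESeq2 called 2068 and 2021 lower. The 5 meristem and flower markers summed to 66 to 88 against 427 to 800, with 4 higher. The fifth, *AG*, made up most of the Col-0 LD sum and was not called (-0.62, SE 0.43). The 4 root markers summed to 388 to 580 against 286 to 489, and the defining *COBL9* and *EXPA7* were at 0 in Col-0 LD. In all 4 groups *GC1* made up most of the guard cell sum, and *SHR* most of the root sum. Under CLL the mesophyll markers summed to 897044 to 1087416 in Col-0 and 567360 to 703117 in *rtnlb16-1*. All 4 lay below zero (median -0.69), with none called by limma and 1 by edgeR and by DESeq2. Under CLL edgeR and DESeq2 called 590 and 550 of all 30388 genes lower. The meristem and flower markers summed to 25 to 301 against 345 to 423, with all 5 above zero. Of these, *PI* was called higher (3.07), not without any 1 of 10 libraries (2.80 to 3.49). No phloem, guard cell or root marker was called by limma, edgeR or DESeq2. The part of these cell types in the genotype differences of the members was not tested.

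Under CLL, nearly all of these differences were small. *FMO GS-OX4* rose and no member fell, where 0.836% of all genes rose and 0.711% fell. At an unadjusted p under 0.05, 7 members were lower and 4 higher, against 2568 lower and 2832 higher of all 30388 genes. EdgeR and DESeq2 each called the same counts of 1 higher and 0 lower. Over all genes edgeR called 617 higher and 590 lower, and DESeq2 481 higher and 550 lower. The median of the members was -0.13, against 0.03 for all genes. In 17 members all *rtnlb16-1* libraries were below all of Col-0, as in 16.9% of all genes, and in 3 above, as in 15.2%. *FMO GS-OX4* was at 139, 157 and 125 in Col-0 CLL and at 478, 524 and 814 in *rtnlb16-1* CLL. The groups were well apart, and it rose by 2.07 (SE 0.30, limma adjusted p = 0.00113), but its call was lost without library 70 (1.83).

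**Figure D3:**
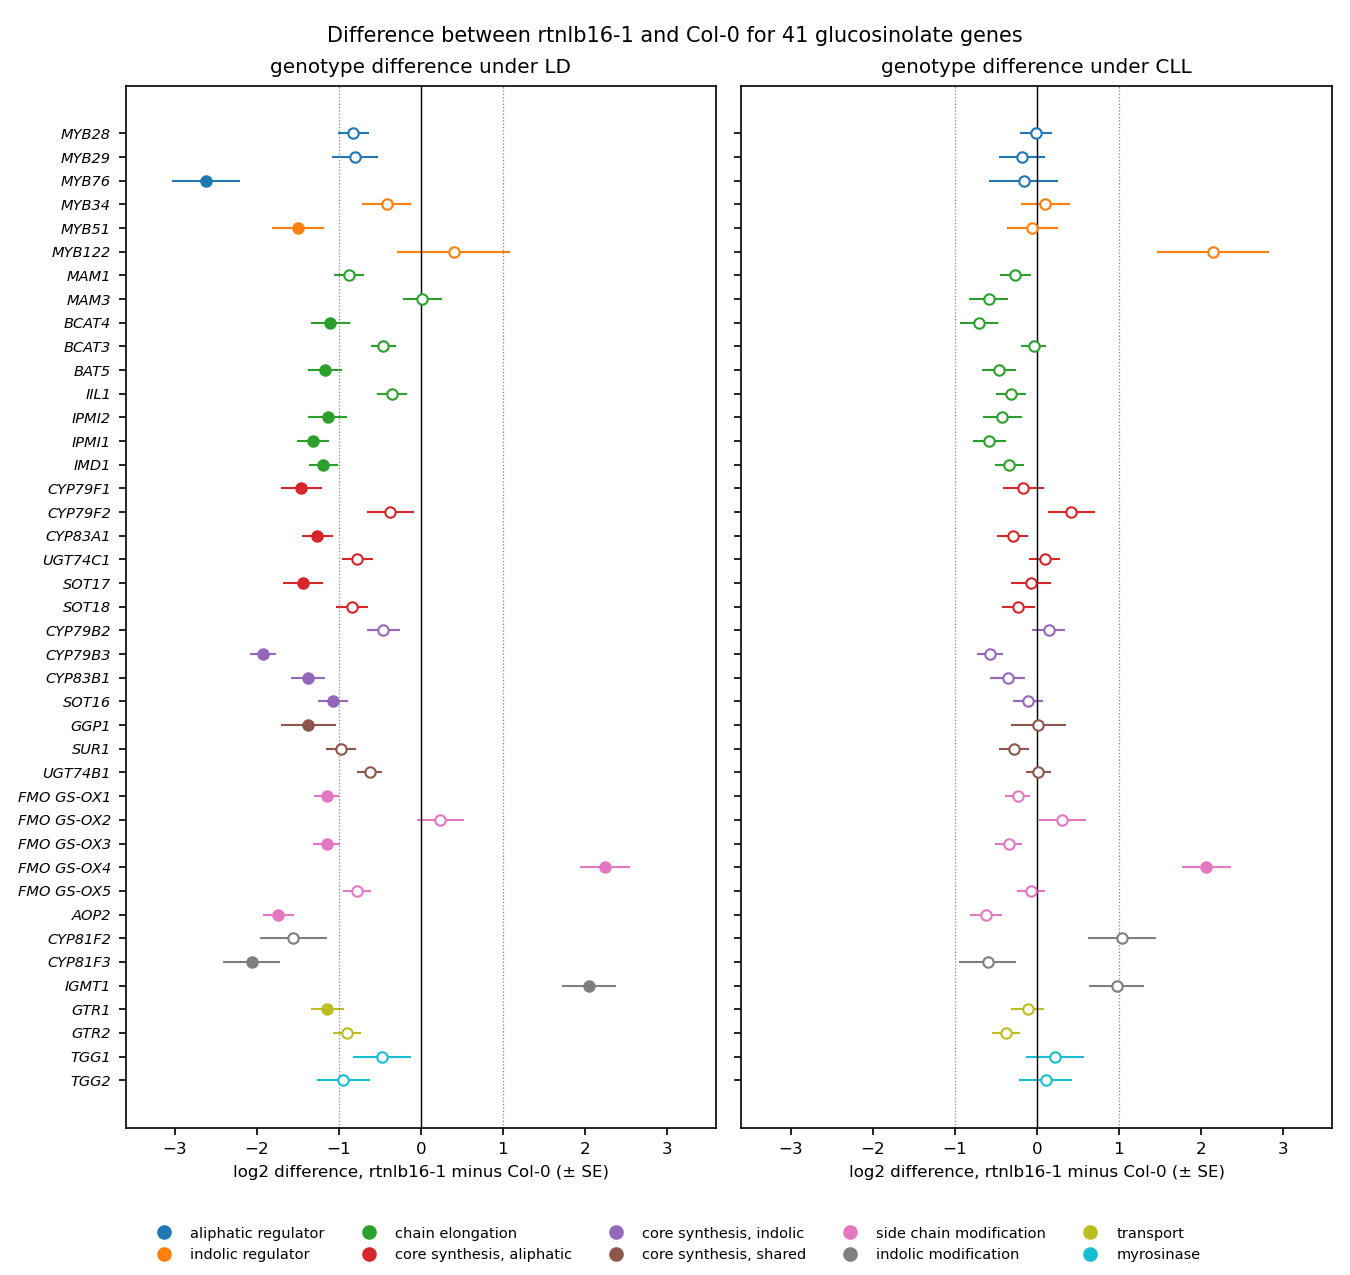
Log2 difference between *rtnlb16-1* and Col-0 with its SE for 41 members in LD (left) and CLL (right), with 3 libraries per group, coloured by role, filled where called and with dotted lines at a difference of 1 in size. *CYP81F4* is left out because it is at 0 in Col-0 LD. Most LD points lie left of zero, whereas the CLL points centre near zero and *FMO GS-OX4* lies at about 2 in both.

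The regulators under CLL showed no called difference. *MYB28* was at 2358, 2469 and 2447 in Col-0 CLL and at 2624, 2526 and 2114 in *rtnlb16-1* CLL, *MYB29* at 632, 909 and 1005 against 841, 797.5 and 589.6, and *MYB76* at 31.8, 75.8 and 70.2 against 59.5, 52.2 and 39.1. All 3 pairs of ranges overlapped. *MYB34* was at 325.5, 549.7 and 582 against 556, 557 and 420.3, and *MYB51* at 371, 414.5 and 283 against 339.9, 297 and 384. *MYB122* was at 0.58, 0.91 and 0 against 5.02, 0.84 and 22.9, so that a single mutant library carried most of its difference. The differences of *MYB28*, *MYB76*, *MYB34* and *MYB51* were small (-0.01, -0.16, 0.11 and -0.06), and the sign of each turned without 1 library: *MYB28* without 66 (0.01) or 70 (0.09), *MYB76* without 66 (0.07), 67 (0.01) or 70 (0.01), *MYB34* without 65 (-0.16), and *MYB51* without 66 (0.06) or 69 (0.04).

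Some enzymes differed in CLL without passing the test. All 9 chain elongation genes lay below zero (median -0.42), with 4 at an unadjusted p under 0.05 and none called. Of all 30388 genes, 13611 lay below zero and 2568 were lower at that p. The lowest was *BCAT4* (-0.70, SE 0.23, limma adjusted p = 0.125). *MAM3*, near zero under LD, was below Col-0 in every mutant library in CLL (-0.58, SE 0.24, limma adjusted p = 0.215). *CYP79B3* was at 1722, 1726 and 1455 in Col-0 CLL and at 1063, 1096 and 1149 in the mutant (-0.56, SE 0.16, limma adjusted p = 0.0648). *AOP2* was at 959, 1389 and 1233 against 774, 849 and 690.1 (-0.62, SE 0.19, limma adjusted p = 0.0955). In both genes every mutant library was below every Col-0 library. *CYP81F2*, by contrast, was at 90.04, 151 and 104 in Col-0 CLL and at 230.2, 180.0 and 301.5 in the mutant (1.04, SE 0.41, limma adjusted p = 0.206). The transporters were at 1402, 1854 and 1508 against 1598, 1598 and 1217 for *GTR1* and at 2561, 2264 and 1935 against 1751, 1679 and 1734 for *GTR2*. *TGG1* (0.22) and *TGG2* (0.11) were slightly above zero, with overlapping ranges.

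The interaction asked whether the genotype difference itself differed between LD and CLL. It was below zero in 38 of 42 members, against 15121 of all 30388 genes. The median of the members was -0.76, against 0.00 for all genes (0.005 before rounding). *CYP79B3* alone passed the test (-1.36, SE 0.22, limma adjusted p = 0.00499), where 0.533% of all genes were lower and 0.395% higher. Its call was lost without any 1 of libraries 47, 49, 50, 52, 65, 67, 68, 69 and 70, although its value then stayed between -1.40 and -1.26. It was also lost with the closely similar libraries 68 and 69 merged. No member was higher by limma, with 2 at an unadjusted p under 0.05 and 1 by edgeR and by DESeq2. Of all 30388 genes, 2477 were higher at that p, and edgeR and DESeq2 called 601 and 525 higher. At an unadjusted p under 0.05, 27 members were lower, against 2339 of all genes. The count tools called more: edgeR 6 lower, against 1.99% of all genes, and DESeq2 5 lower, against 1.79%. By both tools these held *MYB76*, *SOT17*, *CYP79B3* and *CYP81F2*, with *CYP79F1* and *GGP1* by edgeR and *AOP2* by DESeq2. By limma *MYB76* stood at -2.46 (SE 0.59, adjusted p = 0.0383), *CYP81F2* at -2.60 (SE 0.58, adjusted p = 0.028) and *SOT17* at -1.36 (SE 0.35, adjusted p = 0.0493). *FMO GS-OX4* had an interaction of 0.18 (SE 0.43, limma adjusted p = 0.855).

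Between light regimes within Col-0, 2 members were higher in LD than in CLL and 3 lower, where 2.1% of all genes were higher and 3.83% lower. The median was 0.46, against -0.05 for all genes. In 19 members all LD libraries were above all CLL libraries, as in 11.3% of all genes, and in 7 below, as in 13.7%. All 6 genes of the aliphatic core lay above zero, from 0.63 to 1.00. *IPMI1* (1.06, SE 0.20, limma adjusted p = 0.00279) and *SOT18* (1.00, SE 0.20, limma adjusted p = 0.00406) were called, both close to the fold threshold. The call of *IPMI1* was lost without library 49 (0.89), 65 (0.99) or 67 (1.02). That of *SOT18* was lost without 48 (0.82), 49 (1.01), 65 (0.95), 67 (0.99) or 69 (1.00). *MYB51* was at 93.0, 114 and 82.3 in LD and at 371, 414.5 and 283 in CLL and was 1.87 lower in LD (-1.87, SE 0.31, limma adjusted p = 0.00127). *MAM3* (AT5G23020), which makes the longest side chains, was at 234.5, 232 and 232 in LD and at 730.2, 807 and 655 in CLL (-1.64, SE 0.24, limma adjusted p = 0.000444). *IGMT1* was at -1.93 (SE 0.33, limma adjusted p = 0.00148). Each of these 3 genes was separated completely between the regimes. *MYB34*, another indolic regulator, went the other way and was higher in every LD library (1.025, SE 0.30, limma adjusted p = 0.0348). EdgeR and DESeq2 called *MYB34* higher, and limma did not.

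Cell type markers also moved with light in Col-0. The 4 mesophyll markers, all above zero with a median of 1.29, summed to 1713541 to 3001599 in LD and to 897044 to 1087416 in CLL. Limma called *PSAD1* (1.43), not without any 1 of 10 libraries (1.24 to 1.56), and edgeR and DESeq2 each called 3. Of all 30388 genes, limma called 639 higher, edgeR 980 and DESeq2 1011. Guard cell markers summed to 4063 to 8971 against 1548 to 1964, with *GC1* higher in LD (2.06, SE 0.29). The phloem sugar exporter gene *SWEET12* was at 107, 104 and 145 in LD and at 1782, 2295 and 1532 in CLL, and was 3.96 lower in LD (-3.96, SE 0.21), while the 5 phloem markers summed to 12750 to 18650 against 11693 to 15521. Of the meristem and flower markers, summing to 66 to 88 against 25 to 301, *STM* was called lower, not without library 48, 49, 65, 67 or 69 (fitted values of -5.60 to -4.37), and *AG* higher (2.02), not without any 1 of 8 libraries (1.80 to 2.18). Root markers summed to 388 to 580 against 419 to 487. The part of these cell types in the light differences of the members was not tested.

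Within *rtnlb16-1*, no member was higher in LD and 7 were lower, where 1.93% of all genes were higher and 3.28% lower. None was higher at an unadjusted p under 0.05, by edgeR or by DESeq2, and 19 were lower at that p. Of all 30388 genes, 3826 were higher and 5108 lower at that p, and edgeR and DESeq2 called 926 and 958 higher. EdgeR called 12 lower, against 5.72% of all genes, and DESeq2 10, against 4.65%. The median was -0.25, against -0.09 for all genes. In 19 members all LD libraries were below all CLL libraries, as in 18.4% of all genes, and in 4 above, as in 15.3%. The 7 called by limma were indolic genes and the transporters. The count tools went beyond these classes. Each also called 1 aliphatic regulator, 1 shared core gene and 1 myrosinase lower, and edgeR 1 chain elongation gene. *CYP81F2* was at 12.9, 11.4 and 21.4 in LD and at 230.2, 180.0 and 301.5 in CLL, a fall of 3.89 (SE 0.41, limma adjusted p = 3.99e-05). *MYB51* was at 19.4, 44.0 and 42.9 in LD and at 339.9, 297 and 384 in CLL, a fall of 3.31 (SE 0.31, limma adjusted p = 1.36e-05). For both genes the lowest CLL library was several times the highest of LD. *CYP79B3* fell by 1.62 (SE 0.16, limma adjusted p = 1.88e-05) and *GTR2* by 1.25 (SE 0.17, limma adjusted p = 0.000313). *CYP83B1* (-1.18), *CYP79B2* (-1.15) and *GTR1* (-1.003) were also called. The call of *CYP83B1* was lost without library 50 (-1.11), 68 (-1.14) or 69 (-1.15), that of *CYP79B2* without 69 (-1.20) or 70 (-0.99), and that of *GTR1* without 50 (-0.90), 52 (-0.99), 68 (-0.94) or 69 (-0.94).

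Markers moved here too. *SWEET12* was at 18.1, 21.1 and 20.2 in *rtnlb16-1* LD and at 1090.0, 1094 and 995 in CLL, and fell by 5.67 (SE 0.21), with the phloem markers summing to 7053 to 12246 against 12656 to 13624. Mesophyll markers summed to 928532 to 1465084 against 567360 to 703117, with *LHCB1.1* called higher (2.79), not without library 68 (2.71) or 69 (2.75). Guard cell markers summed to 2397 to 3666 against 1275 to 1653, mostly *GC1*. Of the 5 guard cell markers, 4 lay below zero (median -0.185), against the direction of the sum. *KAT1* was called lower (-2.10) and *GC1* higher (1.65). Both calls were lost without any 1 of libraries 50, 52, 68, 69 and 70 (-2.29 to -1.83 and 1.45 to 1.70). Meristem and flower markers summed to 427 to 800 against 345 to 423 and root markers to 286 to 489 against 348 to 364. Their part in the fall of the members lower in LD was not tested.

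**Figure D4:**
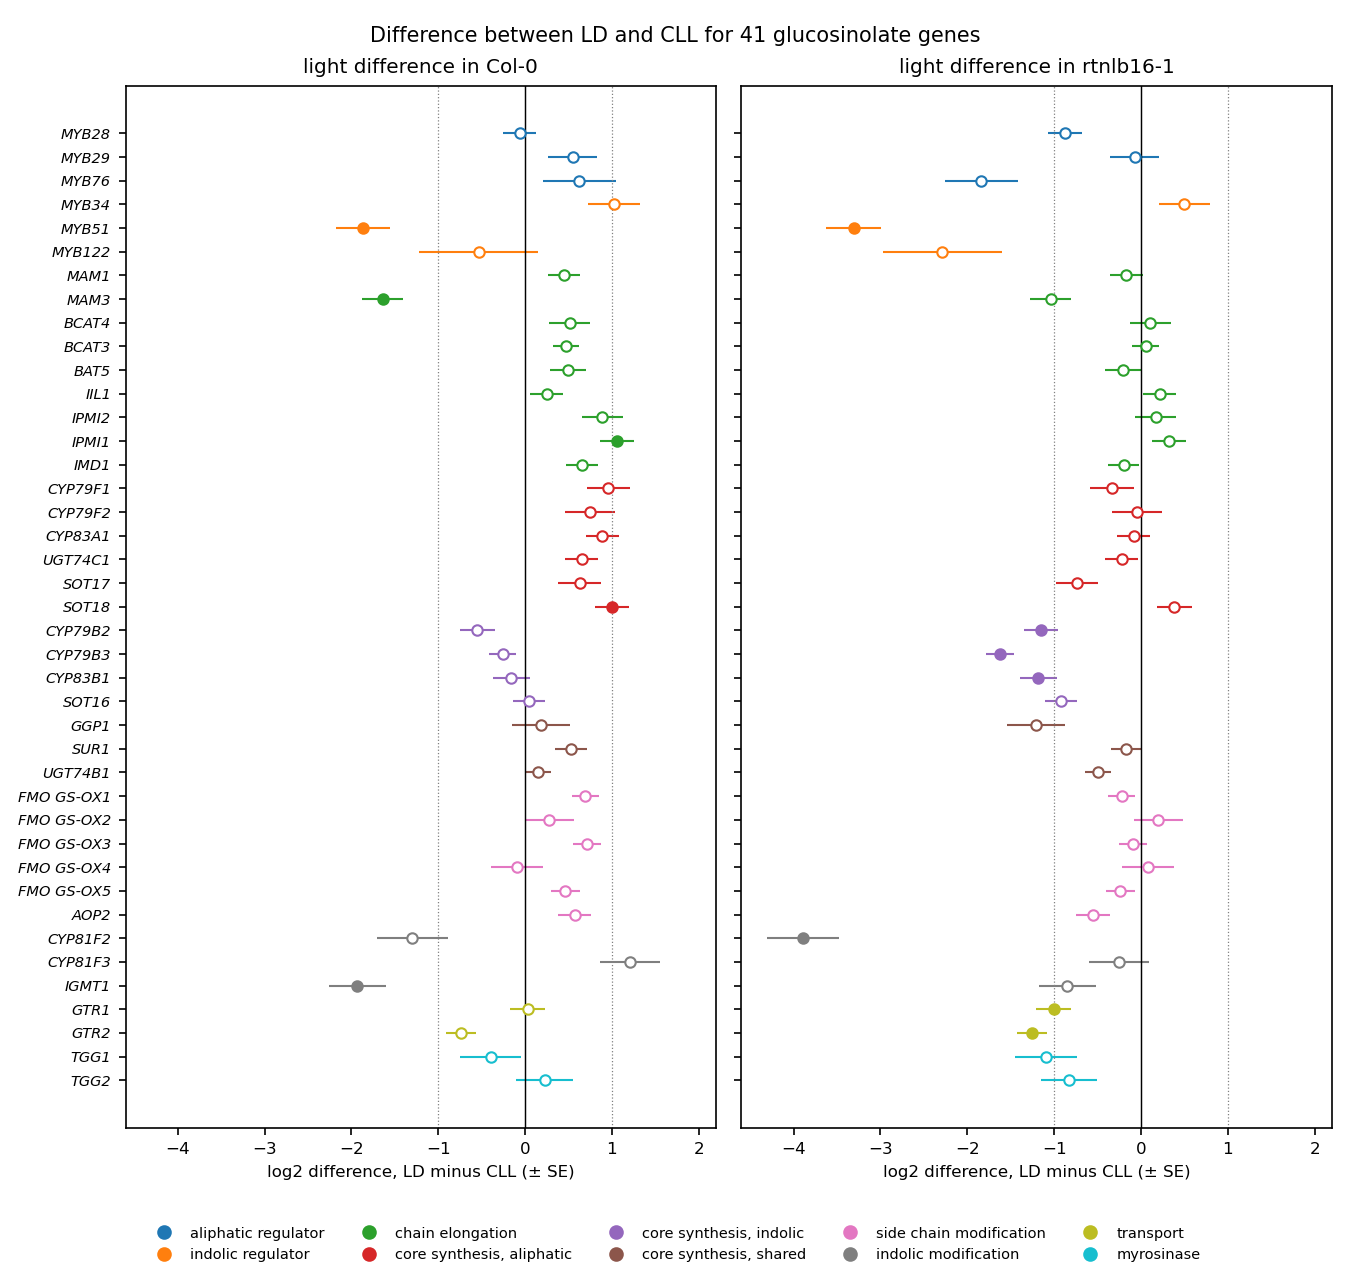
Log2 difference between LD and CLL with its SE for 41 members in Col-0 (left) and *rtnlb16-1* (right), with 3 libraries per group, coloured by role, filled where called and with dotted lines at a difference of 1 in size. The aliphatic core lies between 0.63 and 1.00 in Col-0 and between -0.74 and 0.39 in *rtnlb16-1*, and *MYB51* lies left of zero in both.

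The 2 light contrasts each share libraries with the genotype contrasts, so the values are given side by side and not as separate support. *CYP83A1* was at 0.89 (LD against CLL) in Col-0 and at -0.08 in *rtnlb16-1*, *CYP79F1* at 0.96 and -0.33, and *SOT17* at 0.63 and -0.74. *GTR1* was at 0.03 and -1.003, and *CYP79B3* at -0.26 and -1.62. Only for *CYP79B3* among these did the interaction pass limma's test.

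Related members differed from each other within the same library, and the ratio between them does not depend on the scaling of the libraries. These pairs were picked with their values known and are described without a test. *CYP79F1* and *CYP79F2* lie in tandem on chromosome 1, 1183 bases apart on the plus strand. The log2 ratio of their normalized counts was 5.41, 5.34 and 5.35 in Col-0 LD and 4.26, 3.78 and 4.82 in *rtnlb16-1* LD, so the ratio was lower in each mutant library. In CLL it was 5.08, 5.01 and 5.41 in Col-0 and 4.62, 4.58 and 4.53 in the mutant. *MAM1* and *MAM3*, 11144 bases apart on chromosome 5, had ratios of 5.37, 5.78 and 5.29 in Col-0 LD and 3.36, 3.31 and 3.50 in Col-0 CLL. In Col-0 the ratio was thus higher in every LD library, while in *rtnlb16-1* it was 4.48, 3.89 and 5.40 in LD and 3.89, 3.61 and 3.63 in CLL.

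*FMO GS-OX4* lies 5885 bases from *FMO GS-OX3* on chromosome 1, on the same strand. Its log2 ratio over that neighbour was -4.56, -4.71 and -5.49 in Col-0 LD and -1.81, -0.68 and -2.06 in *rtnlb16-1* LD. In CLL it was -4.19, -3.96 and -4.19 against -2.02, -1.92 and -1.15, again higher in every mutant library. *CYP79B3* and *CYP79B2*, on chromosomes 2 and 4, had ratios of between 0.62 and 1.35 in Col-0 LD and -0.37, -0.36 and -0.62 in *rtnlb16-1* LD, so that the more abundant transcript of the pair was *CYP79B3* in Col-0 and *CYP79B2* in the mutant. In CLL the ratios were 0.79, 0.61 and 0.80 against 0.20, 0.12 and -0.24. The pairs share similar sequence, so reads that fit both copies could be assigned to neither.

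**Figure D5:**
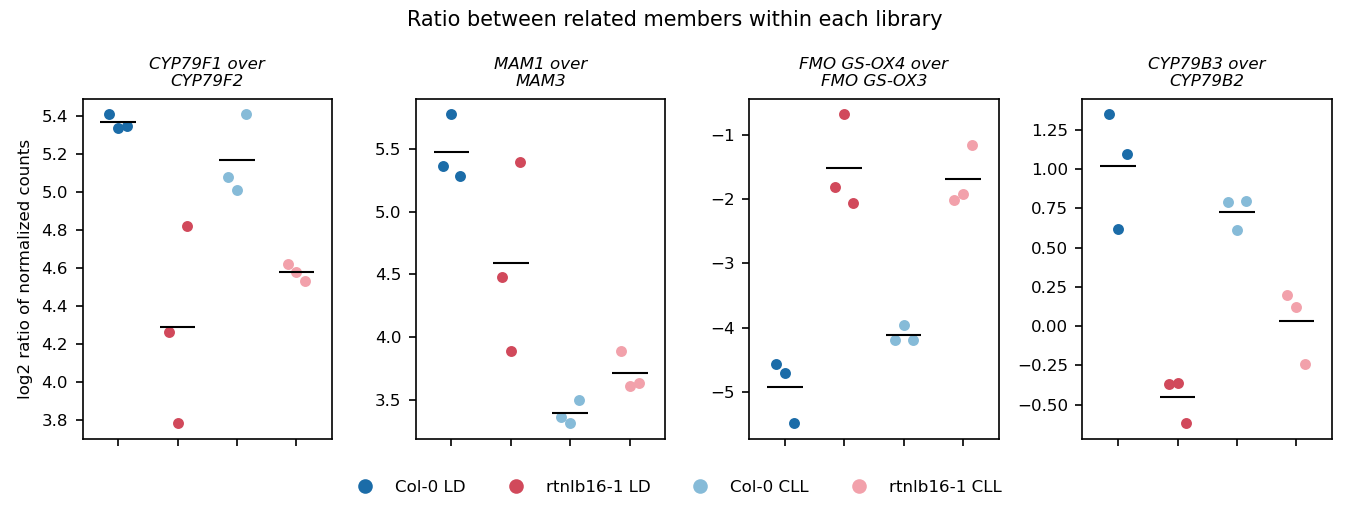
Log2 ratio of normalized counts between related members within each library, with a point per library, a black bar at the mean of the 3 libraries and colours for the 4 groups. In LD the ratio of *CYP79F1* to *CYP79F2* and of *CYP79B3* to *CYP79B2* is lower in every *rtnlb16-1* library than in every Col-0 library, and that of *FMO GS-OX4* to *FMO GS-OX3* is higher.

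The wider pathway was read from 4 more gene lists. Of 12 genes of sulfate uptake, reduction and PAPS supply, 4 fell and none rose under LD by limma, where 5.41% of all genes fell and 6% rose. An unadjusted p under 0.05 was reached by 6 on the lower and 2 on the higher side, with no rise by edgeR or DESeq2. Of all 30388 genes, 4559 were lower and 5278 higher at that p, and edgeR and DESeq2 called 2023 and 1954 higher. Their median was -0.54, against 0.00 for all genes. *APR1*, a sulfate reductase gene, was at 4439, 4085 and 4036 in Col-0 LD and at 1160, 1327 and 1479 in *rtnlb16-1* LD. The groups were far apart, and it fell by 1.67 (SE 0.18, limma adjusted p = 1.46e-05). *APR2* (-1.37) and the APS kinase genes *APK2* (-1.35) and *APK1* (-1.16), which supply the sulfotransferases, also fell, the last not without library 49 (-0.90). *APR3*, of the same reductase family, was at 2006, 1383 and 1566 in Col-0 LD and at 1808, 4188 and 2734 in *rtnlb16-1* LD, and was not called (0.75, SE 0.32, limma adjusted p = 0.117). In CLL it was at 1319, 2921 and 2559 against 5829, 5861 and 8079, above Col-0 in every mutant library and called by edgeR and DESeq2 but not by limma (1.60, SE 0.32, limma adjusted p = 0.0112). Under CLL none of the 12 was called by limma, although 2 on the higher and 1 on the lower side reached an unadjusted p under 0.05 and 1 was higher by edgeR and by DESeq2. Of all 30388 genes, 2832 were higher and 2568 lower at that p under CLL, and edgeR and DESeq2 called 617 and 481 higher. *APR1* passed the interaction test (-2.11, SE 0.25, limma adjusted p = 0.000535). Within *rtnlb16-1* it was 1.61 lower in LD than in CLL (-1.61, SE 0.18).

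Of 8 other regulators tested, *SDI2*, a repressor of the pathway under sulfur shortage, fell under LD by 2.25 (SE 0.35), from 257, 230.4 and 233 to 29.7, 78.2 and 52.4. *MYC4* was called too (-1.23), but not without any 1 of libraries 47, 49, 50, 52, 67, 68, 69 and 70 (-1.23 to -1.01). *MYC2* was listed at 0 in all 12 libraries, and 98.5% of its exonic bases lie in an exon of a gene on the opposite strand, so its level was not read here. *GSTF11*, wholly within such an overlap, was also at 0. Of 15 other synthesis genes tested, *GSTU20*, a glutathione transferase gene, fell by 1.33 (SE 0.25) and the methyltransferase gene *IGMT5* rose by 4.73 (SE 0.67), from 11.4, 0 and 8.23 to 133, 119.6 and 132.

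The 20 breakdown and specifier genes went in both directions under LD, with 8 higher and 2 lower, where 6% of all genes were higher and 5.41% lower. Their median was 0.37, against 0.00 for all genes. *NSP4*, a nitrile specifier gene, was at 0, 0 and 1.37 in Col-0 LD and at 126, 100.2 and 190.5 in *rtnlb16-1* LD, and in Col-0 CLL at 151, 2.74 and 76.7. Its low libraries were those with little *STM*, and the part of that tissue was not tested. *NIT2*, a nitrilase gene, was at 10.01, 12.3 and 21.9 in Col-0 LD and at 924, 273 and 3094 in the mutant, and rose by 5.95 (SE 0.87, limma adjusted p = 0.000215). *MBP2*, a myrosinase-binding protein gene, rose by 3.08 (SE 0.62), a call lost without library 48 (2.57), 50 (2.88) or 52 (2.99). *NSP3* was at 0 in Col-0 LD and between 7.03 and 10.7 in the mutant, at least 2.05-fold higher against the floor of 3 reads. Like *NSP4*, both were lowest in the libraries with little *STM*, with *MBP2* at 82.2 and *NSP3* at 3.65 in library 66. The part of that tissue in these 2 rises was not tested. Of 3 genes named after their values were seen, *NSP5* was at 2879, 4515 and 3737 in Col-0 LD and at 23212, 13392 and 18383 in *rtnlb16-1* LD, and rose by 2.29 (SE 0.26). *ESP*, which directs breakdown to nitriles and epithionitriles, fell by 2.06 (SE 0.24), and *ESM1*, which favours isothiocyanates, fell by 1.78 (SE 0.26), from 62227, 60985 and 42909 to 18118, 14244 and 15548. Under CLL, *BGLU28* was the single gene of this list that limma called (3.19, SE 0.55), a call lost without any 1 of libraries 65, 66, 68, 69 and 70 (2.74 to 3.33). EdgeR called 4 of the list higher and 1 lower, and DESeq2 3 higher and 0 lower. Of all 30388 genes under CLL, edgeR called 617 higher and 590 lower, and DESeq2 481 higher and 550 lower. By limma 0.836% of all genes were higher and 0.711% lower. *NIT2* was at 71.0, 412 and 41.6 in Col-0 CLL and at 1291, 1461 and 5443 in *rtnlb16-1* CLL. It was thus above Col-0 in every mutant library in CLL as well, without a call by limma.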

How the data were processed

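RNA-seq reads of 12 leaf libraries were aligned by the authors with STAR to TAIR10 and counted per gene with HTSeq, keeping reads assigned to a single gene. The deposited values are a signal per gene, read counts divided by the authors' DESeq2 size factor, called normalized counts here. Whole reads were recovered from 100.0% of the values above 0 (relative tolerance 1e-06). All 12 libraries shared 1 sequencing lane, and strand use is not given in the sources used here.

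Genes with a read in any library (30388 of 37336) were fitted with limma 3.58.1 (R 4.3.3, trended variance) on log2(value + 1) with a mean for each of 4 groups. Genes were called at an absolute log2 difference above 1 and an adjusted p under 0.01. The recovered reads were tested with edgeR 4.0.16 and DESeq2 1.42.0 as alternatives. Further settings tried were a pseudocount of 0.5 or 5, a minimum of 10 in 3 libraries, TMM and upper-quartile scaling, the compared groups alone, an adjusted p of 0.05, no minimum fold, each library left out, and libraries 68 and 69 merged. The fit was tested on simulated data. All members were eligible to be named, with up to 4 called genes of each wider list by size of change. Members, lists and pairs were chosen with earlier results of these data known. Where nothing says that replicates were separate cultures, p-values measure the spread between these pools of plants. Promoters were read from RefSeq with Python 3.11.15.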

Additional observations from a re-analysis of the deposited data

Results flagged for a closer look

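The genotype difference of *CYP79B3* differed between the light regimes by -1.36 on the log2 scale (interaction in limma, SE 0.22, adjusted p = 0.00499): it was -1.93 under LD and -0.56 under CLL. All 3 *rtnlb16-1* libraries were below all 3 Col-0 libraries in both regimes. The call was lost without any 1 of libraries 47, 49, 50, 52, 65, 67, 68, 69 and 70, with values from -1.40 to -1.26. It was also lost with the closely similar libraries 68 and 69 merged. The cause was not tested.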

How the results depend on the processing

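Of 1309 alternative values of the members' results, most kept their direction and their side of the threshold. The counts under LD were 17 to 20 lower and 3 to 3 higher with each library left out. For members higher in LD in Col-0 (2), the count was 1 with a pseudocount of 5, with TMM and with libraries 68 and 69 merged, 4 with DESeq2 and at an adjusted p of 0.05, 5 with no minimum fold, and 0 to 3 with a library left out. Members lower in LD in Col-0 (3) were 5 with edgeR and 3 to 4 with a library left out. Members lower in LD in *rtnlb16-1* (7) were 12 with edgeR, 11 at an adjusted p of 0.05 and 5 to 10 with a library left out. Members higher under CLL (1) were 0 to 1 with a library left out. For the interaction, 1 member was higher with edgeR and with DESeq2 (0 to 1 with a library left out), and 6 were lower with edgeR, 5 with DESeq2 and at an adjusted p of 0.05, 0 with libraries 68 and 69 merged, and 0 to 1 with a library left out. The CLL difference of *MYB28* turned sign with TMM (0.005), upper-quartile scaling (0.016) and edgeR (0.011), and ran from -0.069 to 0.087 with a library left out. Under CLL the sign also turned with a library left out for *MYB76* (-0.55 to 0.066), *MYB34* (-0.16 to 0.26), *MYB51* (-0.21 to 0.064) and *GTR1* (-0.20 to 0.02). The cause was not tested. The alternatives for the wider lists and markers were chosen after seeing the data. No paired analysis was possible because the library numbers are not shared between groups.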
